A study of Mus musculus with 96 samples.

Results

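The genes described here are the cytosolic ribosomal protein genes of the mouse, the Rpl and Rps genes together with Rplp0, Rplp1, Rplp2 and Rpsa. They were chosen by name: every row of the count table whose identifier belongs to a protein-coding gene with such a symbol was taken, and the kinases of the Rps6k family were left out. This gave 83 genes of 54833 counted features, 51 of the large subunit and 32 of the small subunit, spread over 19 chromosomes with 4 on X.

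RNA was sequenced from forebrain, cerebellum, liver and kidney of male wild-type C57BL/6 mice aged 6 to 8 weeks. In the sleep-deprived group (SD), mice spent 10 h of the resting phase in a slowly turning drum with food and water, and control mice (CON) were not disturbed. Tissue was then collected every 4 h from circadian time (CT) 4 to 24 with 2 replicates, which gives 96 libraries in 48 groups of 2, or 12 CON and 12 SD libraries in each tissue. No genetic change separates the groups. The study describes the replicates as biological repetitions, and neither its methods nor the labels say whether the tissues of a replicate came from the same mice.

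Each ribosome holds a set of ribosomal proteins around its ribosomal RNA, and these proteins are made in matched amounts. Their messenger RNAs are among the most abundant of a cell and usually begin with a run of C and T (a 5′ terminal oligopyrimidine, or TOP, sequence), which lets the kinase mTOR raise or lower their translation through LARP1 and the 4E-BP proteins when feeding or growth signals change. That control acts mainly on translation, which RNA counts do not measure. In bulk tissue, fewer cells of a type and less RNA per cell cannot be told apart.

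The start of the transcripts was looked at first, since a TOP sequence is the feature these genes are known for. RefSeq promoter windows (GRCm38.p6, 250 bases before to 50 after the start) were found for 63 of the 83 genes, and for 27025 genes in all. An unbroken run of 7 or more C or T within 15 bases either side of the start was present in 34 of the 63 (54.0%), against 21.3% of all genes. Such a run can lie wholly before the start, as in Rps27l below, whereas a TOP sequence begins at the first base of the RNA. These shares are thus not counts of TOP sequences. The 30 bases around the start are shown for 6 genes that the results below turn on, with the longest such run in capitals. The first 4 were among those higher in the liver of SD mice, Rps27l had the widest range between tissues, and Rps7 had the reverse order of tissues.

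Rps18 (chr17:33955651-33955680, minus strand): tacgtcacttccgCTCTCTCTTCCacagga

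Rpl27a (chr7:109519180-109519209, plus strand): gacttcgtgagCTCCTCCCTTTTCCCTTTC

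Rpl22l1 (chr3:28805493-28805522, plus strand): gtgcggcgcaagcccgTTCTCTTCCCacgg

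Rps16 (chr7:28350674-28350703, plus strand): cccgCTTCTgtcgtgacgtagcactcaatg

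Rps27l (chr9:66946071-66946100, plus strand, the first of its 2 starts): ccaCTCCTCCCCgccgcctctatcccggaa

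Rps7 (chr12:28635939-28635968, minus strand): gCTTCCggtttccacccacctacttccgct

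The run is 19 bases long in Rpl27a, 11 in Rps18 and 10 in Rpl22l1, but 5 in Rps16 and 5 in Rps7, so the annotated start of a ribosomal protein gene does not always carry it. Over the whole window, on both strands, CCGGAAG, a core bound by ETS-family factors, occurred in 41.3% of the 63 genes against 9.93% of all genes, and ATGGCG, which holds the core of YY1 sites, in 33.3% against 10.2%. The E-box CACGTG, to which the clock factors CLOCK and BMAL1 bind, occurred in 6 of the 63 (9.52%) against 8.09% of all genes. The GC-box core GGGCGG was found in 61.9% against 38.2%, and TATAAA in 11.1% against 15.7%. These are letter matches and not measured sites.

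The libraries held 24.8 M to 58.5 M counted reads, and the 83 genes together took a small and tissue-dependent share of them. The median share in CON libraries was 0.278% in cerebellum, 0.440% in forebrain, 0.861% in liver and 0.972% in kidney. The ranges of the tissues did not overlap except between liver and kidney (0.703% to 0.963% and 0.915% to 1.08%). In SD libraries the medians were 0.283%, 0.417%, 0.850% and 0.976%. Defining markers of each tissue were present in its own libraries, but 1 library stood apart: in cerebellum CON CT8 replicate 1, antisense genes took 3.60% of counts against a median of 0.931% over the 12 cerebellum CON libraries, and the ribosomal protein genes only 0.184%. Where the numbers below rest on it, values without it stand beside them. In kidney, title and sample attributes disagreed for 20 of 24 libraries (for 10 of them in the condition), and the titles, which the count table also carries, were used.

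**Figure D1:**
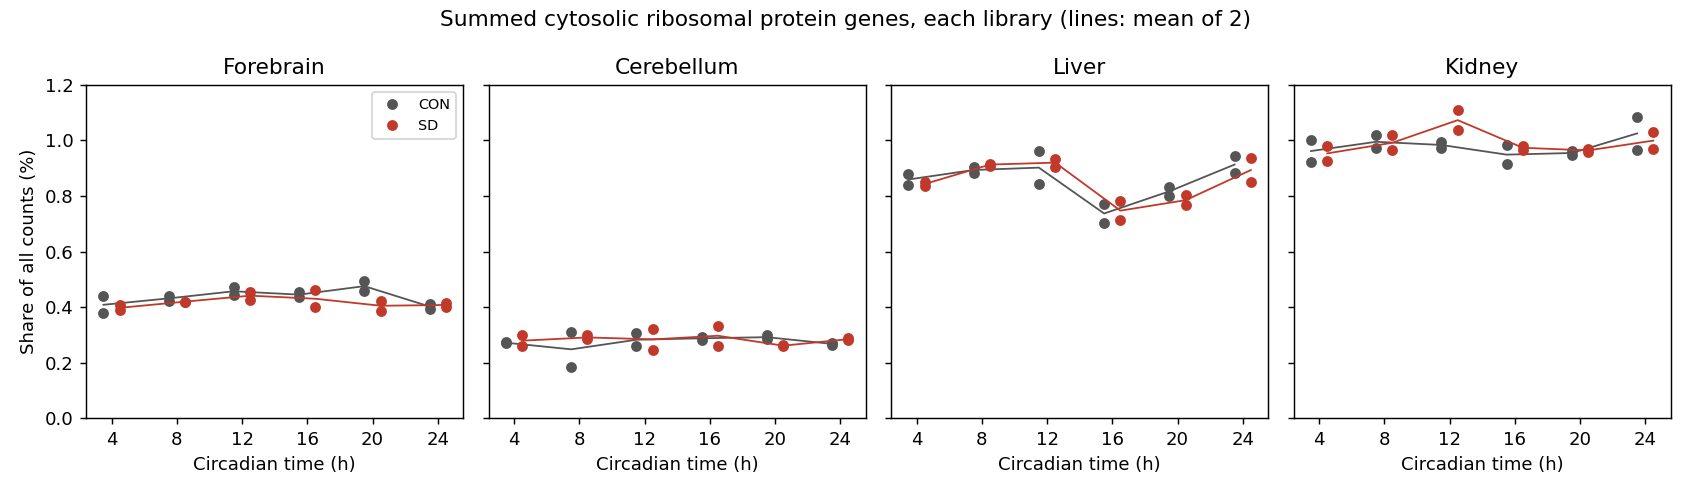
Share of all counted reads (%) taken by the 83 cytosolic ribosomal protein genes in each of the 96 libraries, by tissue and circadian time; points are libraries (CON grey, SD red) and lines join the means of 2. The shares separate forebrain and cerebellum from liver and kidney, whereas CON and SD points lie close together, and the lowest cerebellum point, 0.184%, is CON CT8 replicate 1.

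Levels were compared between genes as CPM (counts scaled to the total of the library) divided by exon length in kilobases, here called the length-scaled level. Exon length was that of all annotated exons of a gene joined, which can exceed its transcript. It was 499 bases in Rplp1, where the transcript has 499, but 2072 against 964 in Rplp2 and 6256 against 468 in Rps24. The order of genes and the limit of 10 below depend on this length, but comparisons of 1 gene between tissues do not. Of the 83 genes, 64 had a CON median of at least 10 in the tissue where they were highest (10.1 to 517), and the other 19 lay at 5.34 or below. Rpl36a (10.1) and Rpl24 (5.34) lay on either side of that limit. The highest gene on this scale was Rplp1, a protein of the acidic stalk that recruits elongation factors. Its mean length-scaled level was 515 ± 50.4 in liver and 501 ± 29.1 in kidney (SD, n = 12), against 272 ± 29.1 in forebrain and 92.9 ± 19.2 in cerebellum. Liver and kidney did not differ beyond their spread, whereas each differed from both brain regions without any overlap of libraries. Its stalk partner Rplp2 had 38.0 ± 4.26 in liver and 51.5 ± 3.50 in kidney, and Rplp0, the protein that holds the stalk to the ribosome, had only 78 counts over all 96 libraries. In counts over all libraries, Rplp1 (620089) and Rplp2 (226412) lay closer together than on the length-scaled level.

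A low count of a gene says nothing of its protein. The authors kept only uniquely placed reads, and many ribosomal protein genes have processed pseudogenes of nearly the same sequence. Rpl10l and Rpl35a had 0 counts in all 96 libraries, Rpl39l had 39, Rpl7a 41, Rpl41 225 and Rpl22 344. Rpl10l and Rpl39l are retrogene copies known from the testis, but Rpl35a, Rpl7a and Rpl41 code for constant parts of the large subunit. Their counts are therefore reported as uncertain. The share of a gene's 100-base words that occur elsewhere in annotated transcripts had a median of 46.8% in the 19 low genes (0 to 83.0%). It was 40.6% in the 64 others (0 to 98.4%), so this measure alone did not separate them. Exons of other genes on the same strand overlapped 47.0% of the exon bases of Rpl24 and 35.4% of those of Rpl13a. Both are low genes, and the median overlap was 0 in both classes. The parts of shared sequence and of overlap in the low counts were not tested further. Of the 64 others, 27 shared 50% or more of their words, so their levels can be undercounted too. Of the low genes 8 were too low for any of the single-tissue fits and 10 passed in all 4.

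**Figure D2:**
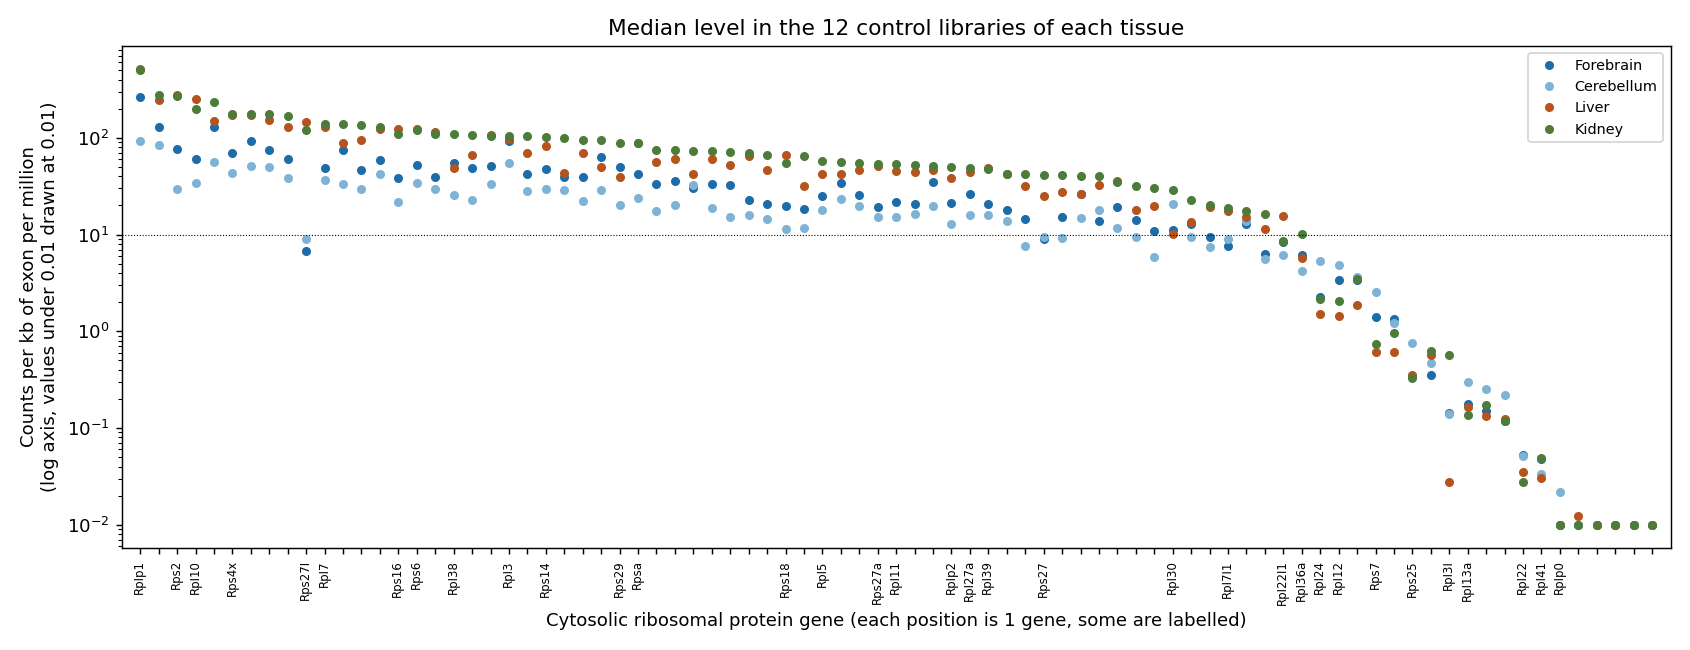
Median length-scaled level (CPM per kb of exon, log axis) of the 83 genes in the 12 CON libraries of each tissue, sorted by the highest tissue, with names for some of them; the dotted line marks 10. Rplp1 leads with 517 in liver, cerebellum (light blue) is lowest for 57 of the 64 genes above the line, and Rps27l stands out by the distance between brain regions and the other tissues.

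Among the 64 genes above the limit, the CON median was highest in kidney for 52 and in liver for 12, and lowest in cerebellum for 57, in forebrain for 6 and in liver for 1. The median over these genes was 72.0 in kidney, 49.3 in liver, 32.6 in forebrain and 19.8 in cerebellum. The order was different in the low class: of the 15 low genes with a CON median above 0 in some tissue, 9 were highest in cerebellum and 13 were higher in cerebellum than in liver. The low place of cerebellum was thus shared by most, not all, of the 64 genes. These levels, and those of single genes below, are scaled to library totals alone. In the fit of CON libraries below, scaled with TMM factors, 53 of 75 genes were higher in liver than in kidney. The order of these 2 tissues thus depends on the scaling.

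Rps27l, a paralog of Rps27 known as a p53 target, had the widest range between tissues. Its length-scaled level in CON libraries ran from 5.69 through a median of 6.74 to 9.56 in forebrain, from 4.26 through 8.96 to 11.0 in cerebellum, from 103 through 120 to 134 in kidney and from 100 through 147 to 165 in liver. No brain library came near a liver or kidney library, whereas the parent gene Rps27 had means of 11.0 ± 4.32, 9.85 ± 1.58, 37.0 ± 14.3 and 23.9 ± 8.42 in the same order of tissues. Of the 100-base words of Rps27, 98.4% occur in transcripts of other genes, against 0% for Rps27l. Since only uniquely placed reads were kept, the levels of the 2 genes cannot be set against each other. Forebrain was lower than liver by 4.93 on the log2 scale for Rps27l (SE 0.11, adjusted p = 7.74e-37, edgeR quasi-likelihood test with Benjamini-Hochberg adjustment over all genes).

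The other paralog pairs had other orders. Rpl22l1, a copy of Rpl22, was highest in liver (15.6 ± 2.03) and similar in forebrain (8.59 ± 1.61) and kidney (8.54 ± 0.69), and its parent Rpl22 was near 0 throughout. The counts of Rpl22 (344 over all libraries, with 0% of its words shared) are uncertain too, and why they are low was not tested. Rpl3l, known from striated muscle, had 0.61 ± 0.15 in kidney, 0.16 ± 0.07 in forebrain, 0.15 ± 0.07 in cerebellum and 0.04 ± 0.04 in liver, while Rpl3 differed little between forebrain (93.1 ± 8.33), liver (99.1 ± 10.4) and kidney (106 ± 5.77). Rpl7l1, which serves ribosome assembly, was at 7.69 ± 0.30 in forebrain and 8.98 ± 0.53 in cerebellum against 18.6 ± 3.07 in liver and 19.2 ± 1.01 in kidney. Rpl7 itself had 36.3 ± 5.20 in cerebellum and 137 ± 6.31 in kidney. Of the X-linked parents, Rps4x had means of 173 ± 15.9 in liver and 176 ± 6.84 in kidney, which overlap, and Rpl10, one of the last proteins to join the large subunit, was higher in liver (251 ± 20.1) than in kidney (197 ± 7.76). Rpl39, a protein of the exit tunnel, overlapped between liver (48.6 ± 8.35) and kidney (46.9 ± 2.25).

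Several of these proteins have functions beyond translation. Rpl5 and Rpl11, which bind 5S ribosomal RNA and can restrain Mdm2, had means of 57.9 ± 2.25 and 54.8 ± 4.25 in kidney, 42.2 ± 2.69 and 45.0 ± 4.73 in liver, and 18.4 ± 1.23 and 15.2 ± 1.92 in cerebellum. Rps6, the protein phosphorylated by S6 kinase, had equal means of 122 in liver and kidney and 33.7 ± 4.83 in cerebellum. Rpsa, also known as the laminin receptor, had 86.8 ± 9.85 in liver and 88.3 ± 5.68 in kidney against 22.7 ± 3.47 in cerebellum. Rps14 reached 102 ± 5.88 in kidney and 81.5 ± 6.11 in liver. Rpl38, known for its part in the translation of Hox messenger RNAs, was higher in kidney (109 ± 12.5) than in liver (51.5 ± 11.4), where it overlapped with forebrain (56.0 ± 5.89). Rpl13a was in the low class, with 0.30 ± 0.09 in cerebellum and 0.14 ± 0.06 in kidney.

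Pairs of tissues were compared in 1 fit of the 48 CON libraries with 75 of the genes tested, and a gene was called at an adjusted p under 0.05 and a difference over 2-fold. Cerebellum was lower than liver for 62 of the 75 genes and higher for 3, and lower than kidney for 62 and higher for 4. Over all genes tested, 28.8% were called lower and 39.1% higher in cerebellum than in liver, and 30.7% and 34.8% than in kidney. The ribosomal protein genes were thus mostly called lower, while somewhat more of all genes were called higher than lower. Their median difference was -2.25 on the log2 scale against liver, where the median of all genes was 0.34, and -2.03 against kidney, where it was 0.10. Without the library that stood apart, 62 of 77 were lower and 2 higher than in liver (29.1% and 38.2% of all genes), and 62 were lower and 3 higher than in kidney (30.7% and 34.1%). Forebrain was lower than liver for 50 genes and higher for 1 (background 26.8% lower and 37.6% higher), and lower than kidney for 49 and higher for 0 (27.4% and 33.1%). With library sizes alone in place of TMM factors, which raised the median of all genes for forebrain against liver from 0.26 to 0.81, 27 genes were lower and 4 higher (background 20.2% and 46.3%).

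After Rps27l, the largest differences were in Rps2 (cerebellum against liver -3.95), Rpl10 (-3.64), Rps18 (-3.25) and Rplp1 (-3.21). The reverse was seen for Rps7 (1.40 against liver and 1.59 against kidney), Rpl12 (1.27 and 1.33), Rpl24 (0.91 and 1.11) and Rps25 (1.15 against kidney), all in the low class. Without the library that stood apart, Rpl12 had 0.95 and 0.99 and did not pass the 2-fold limit. The length-scaled levels of Rps7 were 1.91 to 2.99 in cerebellum and 0.371 to 0.738 in liver, without overlap. Since uniquely placed reads may be a small part of the reads of low genes, their order is uncertain.

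Forebrain and cerebellum differed less. Forebrain was higher for 17 genes (22.7%) and lower for 2 (2.67%), beside 19.8% and 14.7% of all genes. The share called higher was thus near the background, and 63 of 75 differences were positive, with a median of 0.79. Rplp1 (1.71), Rps2 (1.52), Rps15 (1.47), Rps29 (1.45) and Rpl19 (1.42) led the higher side, and Rpl24 (-1.10) and Rps25 (-1.03) were the 2 lower genes. Without the library that stood apart, 11 were higher and 1 lower (background 20.5% and 14.0%). The count thus rested in part on that library, and the share called higher was then below the background. Liver and kidney differed past 2-fold only for Rpl22l1, which was higher in liver by 1.38 (SE 0.10, adjusted p = 5.29e-17, edgeR), and Rpl3l, which was lower in liver by 3.23 (background 16.1% higher and 23.3% lower). The median was 0.21 with TMM factors and -0.29 with library sizes alone, where all genes had -0.55 and 5 of the 75 were lower and 0 higher (background 32.7% and 11.3%), so the direction between liver and kidney depends on the scaling.

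The study set out to relate circadian disturbance to tissue specificity, and SD and CON libraries were compared here within each tissue. Averaged over the 6 times, SD liver had higher levels of 17 of 74 ribosomal protein genes and lower levels of none, against 9.42% of all genes higher and 8.80% lower (edgeR, adjusted p under 0.05). The share of the genes called higher, 23.0%, was above the background in that direction, and 60 of the 74 differences were positive, with a median of 0.11 on the log2 scale. The change was small for most, 0.13 to 0.26 outside Rpl30. Of the 17, 10 belong to the large subunit and 7 to the small subunit. All 17 were among the 64 genes above the level limit, and of the 10 low genes tested 2 were positive.

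The direction depended on the scaling. With library sizes alone, none of the 74 was higher (1.82% of all genes were) and 2 were lower, Rpl21 by 0.28 and Rps15a by 0.18 on the log2 scale (19.1% of all genes were). Of the 74, 52 were negative and the median was -0.03. The median over all genes was then -0.13 and under TMM 0.01. A change of scaling moves all genes by nearly the same amount. The distance of the ribosomal protein genes from the median of all genes is therefore about the same in both and gives no separate support. The log2 TMM factors averaged 0.07 in CON and -0.07 in SD liver libraries. Size factors by relative log expression gave 20 higher genes (background 10.3%) and DESeq2 gave 22 (11.7%).

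**Figure D3:**
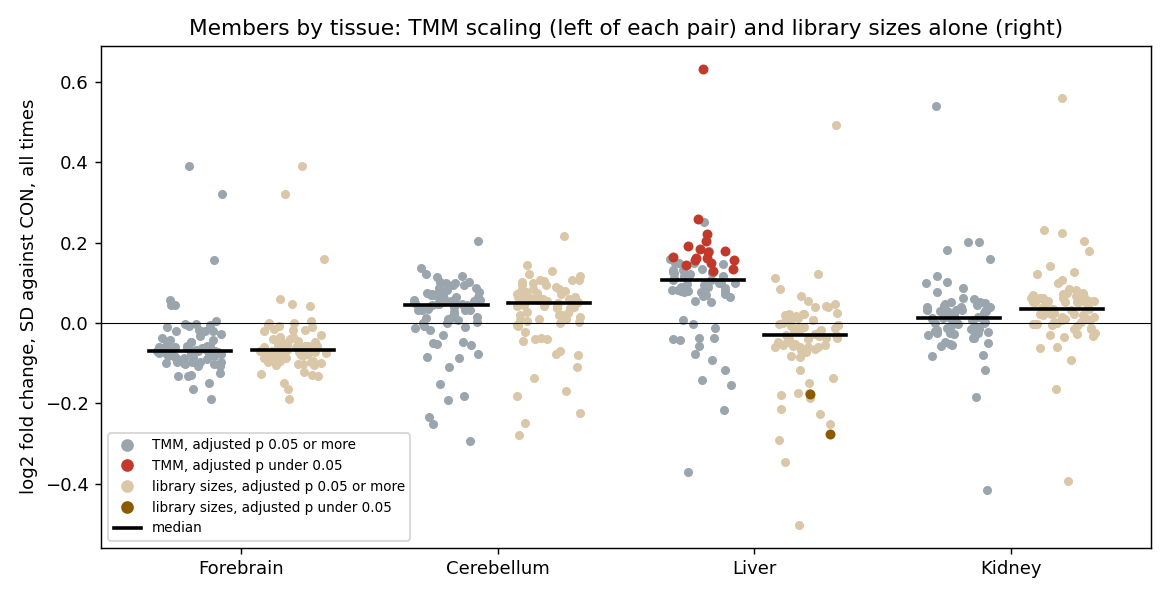
log2 fold change of SD against CON over all times for each ribosomal protein gene tested, by tissue, with TMM factors (left of each pair) and with library sizes alone (right); coloured points have an adjusted p under 0.05 and black bars are medians. In liver the cloud lies above 0 under TMM (median 0.11, 17 called) and around 0 with library sizes (median -0.03, 2 called lower), whereas the other tissues look alike under both.

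Rpl30, a protein of the large subunit, had the largest difference. In CON liver its CPM was 29.5 and 34.2 at CT4 and 31.3 and 30.5 at CT8, and in SD liver 77.3 and 76.3 at CT4 and 98.8 and 51.7 at CT8. At both times each SD library lay above each CON library. At CT12 (CON 53.6 and 34.9, SD 32.3 and 57.1) and CT24 (CON 30.5 and 67.4, SD 88.6 and 54.9) the groups overlapped, and at CT16 and CT20 all 8 libraries lay between 25.4 and 30.6 CPM. Over all times the difference was 0.63 (SE 0.17, adjusted p = 0.0119, edgeR), and at single times it was 1.38 at CT4 and 1.41 at CT8 (adjusted p = 0.0626). With library sizes alone it was 0.49 (adjusted p = 0.0510). In kidney the same gene had separate low and high replicates, for example 42.9 and 108.6 CPM in the CON libraries at CT8, and a difference of -0.41 that did not pass (adjusted p = 0.450, edgeR). In the annotation used, exons cover 96.3% of the Rpl30 locus, so its counts can include unspliced RNA. The same holds for other genes named here, among them Rpl22l1 (100%), Rps27a (87.1%) and Rpl27a (86.1%).

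The other genes named by size changed less and more evenly. Rps18 had 127.7 to 186.1 CPM with a median of 160.7 in CON liver, and 136.0 to 193.6 with a median of 169.5 in SD liver. These ranges overlap widely, and both SD libraries exceeded both CON libraries at 2 of 6 times in CPM and at 4 of 6 once TMM factors were applied. Its difference was 0.19 (SE 0.05, adjusted p = 0.00671, edgeR), positive at all 6 times. Rps16 (0.22), Rplp1 (0.18), Rpsa (0.18) and Rps2 (0.16) were likewise positive at 6 times, and Rpl22l1 (0.26) and Rpl27a (0.18) at 5.

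Single libraries mattered. The count of genes called was between 9 and 28 when each of the 24 liver libraries was left out in turn, and all calls stayed in the higher direction. It was 9 without SD CT12 replicate 2 (background 7.88% higher), 10 without CON CT12 replicate 1 or CON CT16 replicate 1, 11 without CON CT4 replicate 1, SD CT8 replicate 2 or SD CT12 replicate 1, and 28 without SD CT16 replicate 1 (11.5%). The last had a log2 TMM factor of 0.23, as had the CON libraries at CT16 (0.23 and 0.21), against -0.08 in its partner. Rps18, Rps16, Rpl30, Rpl22l1, Rpsa, Rpl10, Rplp1 and Rps2 kept their call in each of the 24 omissions. Markers of leukocytes and of dividing cells moved with the condition. The summed CPM of 6 leukocyte markers was 449 to 1084 in CON liver and 219 to 475 in SD liver. That of 4 proliferation markers was 47.9 to 174 and 12.7 to 60.9. The change was not particular to liver: in kidney the leukocyte sum was 299 to 1064 in CON and 167 to 336 in SD. The proliferation sum in kidney was 65.4 to 103 and 37.0 to 99.7. The part of these markers in the result was not tested.

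Genes of the same pathway in SD liver were as follows. Of 19 other translation genes tested, most of them with TOP messenger RNAs, 5 were higher and 0 lower, in a fit with 9.42% of all liver genes higher and 8.80% lower: the elongation factors Eef1b2 (0.22), Eef2 (0.16) and Eef1g (0.16), the growth-related Tpt1 (0.20) and the initiation factor subunit Eif3l (0.16). Of 15 genes around mTOR, 5 were higher and 0 lower: Eif4ebp2 (0.20), a brake on cap-dependent initiation, Larp1 (0.12), the TOP-binding repressor, Rptor (0.11), the mTOR adaptor, and Tsc1 (0.13) and Tsc2 (0.12), which restrain mTOR. Thus genes that promote and genes that restrain translation were both among those higher. Of 23 genes of ribosome assembly, which make and trim ribosomal RNA, 0 were called (11 were positive). Of 66 mitochondrial ribosomal protein genes, 19 were higher and 1 lower, with a median of 0.13. Rack1, a small-subunit protein outside the naming rule, was higher by 0.13 (adjusted p = 0.0450, edgeR), and Fau was positive without a call. With library sizes alone the counts were 0 higher and 0 lower, 0 and 1, 0 and 3, 1 and 1, and 0 and 0, in the same order, beside 1.82% of all genes higher and 19.1% lower, so these directions share the dependence on scaling.

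In the other 3 tissues no ribosomal protein gene was called over all times. In forebrain 68 of 75 differences were negative with a median of -0.07, 7 had an unadjusted p under 0.05 (6.41% of all genes did), DESeq2 called 0, and 0.0303% of all genes were called. Rps23 (-0.12), Rpl7 (-0.10), Rpl14 (-0.11) and Rps29 (-0.13) were among the 5 genes with the smallest p. In cerebellum 56 of 75 were positive with a median of 0.05, 0 had an unadjusted p under 0.05 (3.41% of all genes), DESeq2 called 0, and no gene of any kind was called. Rpl18 (0.21), Rpl36a (-0.15), Rpl36 (-0.25), Rpl12 (-0.29) and Rps27l (0.14) had the smallest p. Without the library that stood apart, 35 of 76 were positive with a median of -0.01, Rpl12 was at 0.0068 and 0 were called. In kidney 44 of 75 were positive with a median of 0.01, 2 had an unadjusted p under 0.05 (13.1% of all genes), DESeq2 called 0, and 2.30% of all genes were called. Rps4x was at -0.08 (adjusted p = 0.101, edgeR) and negative at all 6 times, and Rps19 was at -0.06. The translation, mTOR, assembly and mitochondrial lists had 0 calls in these tissues.

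**Figure D4:**
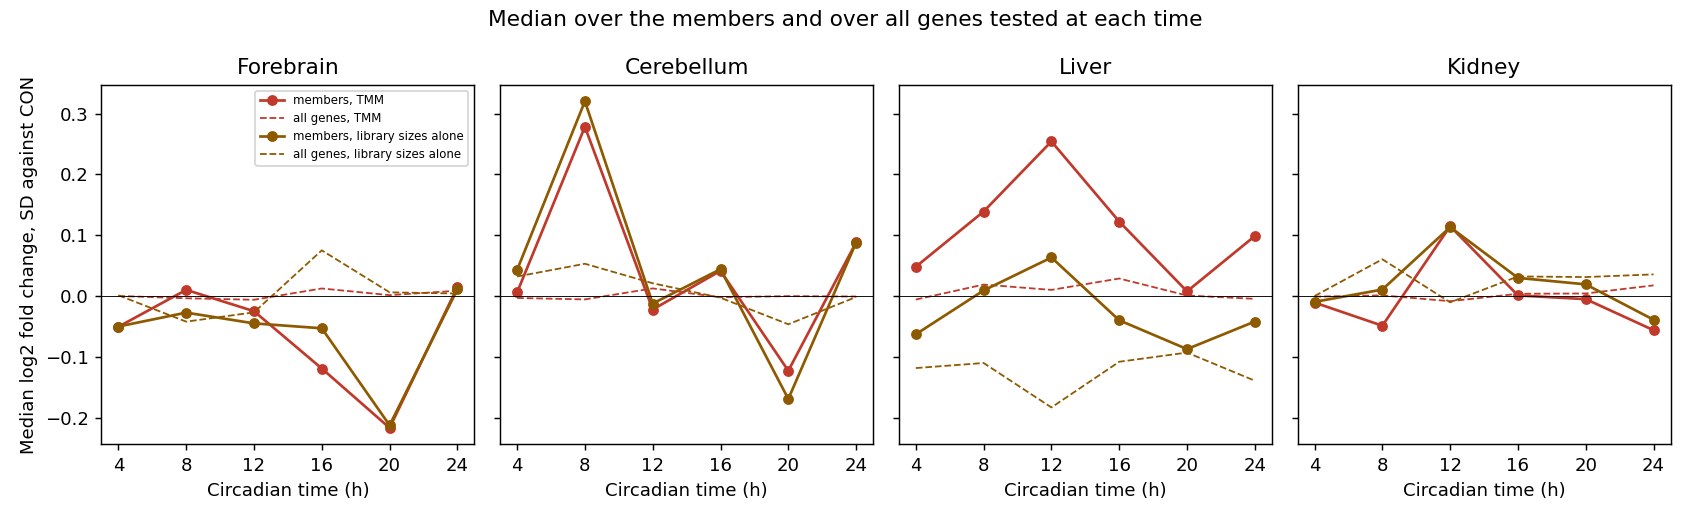
Median log2 fold change of SD against CON at each circadian time over the ribosomal protein genes (solid, points) and over all genes tested (dashed), with TMM factors (red) and library sizes alone (brown), by tissue. The median of the ribosomal protein genes was lowest in forebrain at CT20 (-0.22) and highest in cerebellum at CT8 (0.28), where 1 CON library stood apart, and in liver at CT12 (0.25 with TMM, 0.06 with library sizes).

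Time by time, the largest shift in forebrain was at CT20. There 66 of 75 differences were negative with a median of -0.22, 26 had an unadjusted p under 0.05 (34.7%, against 21.5% of all genes), and 1 was called, Rpl7, a protein of the large subunit. Its CPM was 142.1 and 142.0 for the CON libraries, while the SD libraries had 110.0 and 117.8. The groups did not overlap, and the difference was -0.32 (SE 0.07, adjusted p = 0.0390, edgeR, background 0.433% lower). With library sizes alone 0 were called (0.0953% of all genes lower), and DESeq2 called 8, all lower (2.34%). Leaving out CON CT20 replicate 1, CON CT20 replicate 2 or SD CT20 replicate 1 gave 0, and leaving out SD CT20 replicate 2 gave 4 (0.737% lower). Without the CT20 libraries, the forebrain median over all times was -0.03 and 56 differences were negative.

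In cerebellum at CT8, Rpl30 was called higher by 0.51 and Rpl12 lower by a difference of -1.81, beside 0.540% of all genes higher and 9.73% lower. For Rpl30 the CON libraries had 42.6 and 64.3 CPM and the SD libraries 85.5 and 72.8. For Rpl12 the CON libraries had 94.5 and 16.1 CPM and the SD libraries 17.3 and 16.9. The value of 94.5 belongs to the library that stood apart. Without that library 0 were called, and without the other CON library at CT8 50 were called higher and 2 lower (24.4% and 28.7% of all genes), so these calls turn on 1 library.

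In kidney at CT12, 25 of 75 genes had an unadjusted p under 0.05 (33.3%, against 8.28% of all genes), 55 were positive, the median was 0.11, and 1 was called. That was Rps29, a small-subunit protein, whose CPM was 66.9 and 73.1 for the CON libraries, while the SD libraries had 103.6 and 112.8. The groups did not overlap, and the difference was 0.63 (SE 0.10, adjusted p = 0.0212, edgeR, background 0.0372%). Rpl36a had 17.3 and 20.2 against 31.0 and 33.3 CPM (adjusted p = 0.0617, edgeR). The mean log2 CPM of long genes less that of short genes, ribosomal protein genes left out, was 3.94 and 3.86 in these SD libraries. It was 4.04 and 3.97 in the CON libraries, and both SD values were the lowest in kidney. The part of this length balance, and of the conflicting kidney labels, in the differences at CT12 was not tested. Leaving out any 1 of the 4 libraries ended the call, DESeq2 called 10, all higher (background 0.311%), and without a filter on low counts 18 were called higher and 1 lower (1.06% and 0.288%).

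In liver at CT12, 68 of 74 genes were positive with a median of 0.25, 19 had an unadjusted p under 0.05 (7.66% of all genes did), 0 were called by edgeR and DESeq2 called 1 (0.152%). No gene of any kind was called by edgeR at that time. With library sizes alone 46 were positive, with a median of 0.06 beside -0.18 for all genes. A joint test of the 6 times called 2 genes in liver, beside 3.56% of all genes, and DESeq2 called 4 beside 10.3%. The 2 genes were Rpl30 (adjusted p = 0.0293) and Rps27a (adjusted p = 0.0189), which codes for a fusion of ubiquitin with a small-subunit protein. In CON liver Rps27a had 142.7 and 165.7 CPM at CT4, 134.9 and 100.4 at CT8, 74.1 and 40.6 at CT12, 69.3 and 64.8 at CT16, 89.7 and 102.6 at CT20, and 147.0 and 149.8 at CT24. In SD liver it had 126.6 and 95.5, 84.9 and 66.1, 136.2 and 127.9, 89.3 and 116.3, 134.5 and 95.4, and 119.8 and 129.1 at the same times. In CPM, SD libraries were thus lower at CT4, CT8 and CT24 and higher at CT12 and CT16, each without overlap (lower at 2 times with TMM factors), and the difference over all times was 0.25 (adjusted p = 0.341, edgeR). The joint test called 1 gene without CON CT4 replicate 1 or 2, CON CT8 replicate 1 or 2, SD CT4 replicate 1 or 2, SD CT8 replicate 1 or SD CT12 replicate 1, 12 without SD CT16 replicate 1 (11.1% of all genes), and 2 in the other omissions. It called 0 ribosomal protein genes in forebrain, cerebellum and kidney, beside 0, 0 and 0.725% of all genes. An unadjusted p under 0.05 was reached by 8, 1 and 15 (11.9%, 9.16% and 10.6% of all genes), and DESeq2 called 3, 0 and 6 (4.18%, 1.08% and 3.21%).

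**Figure D5:**
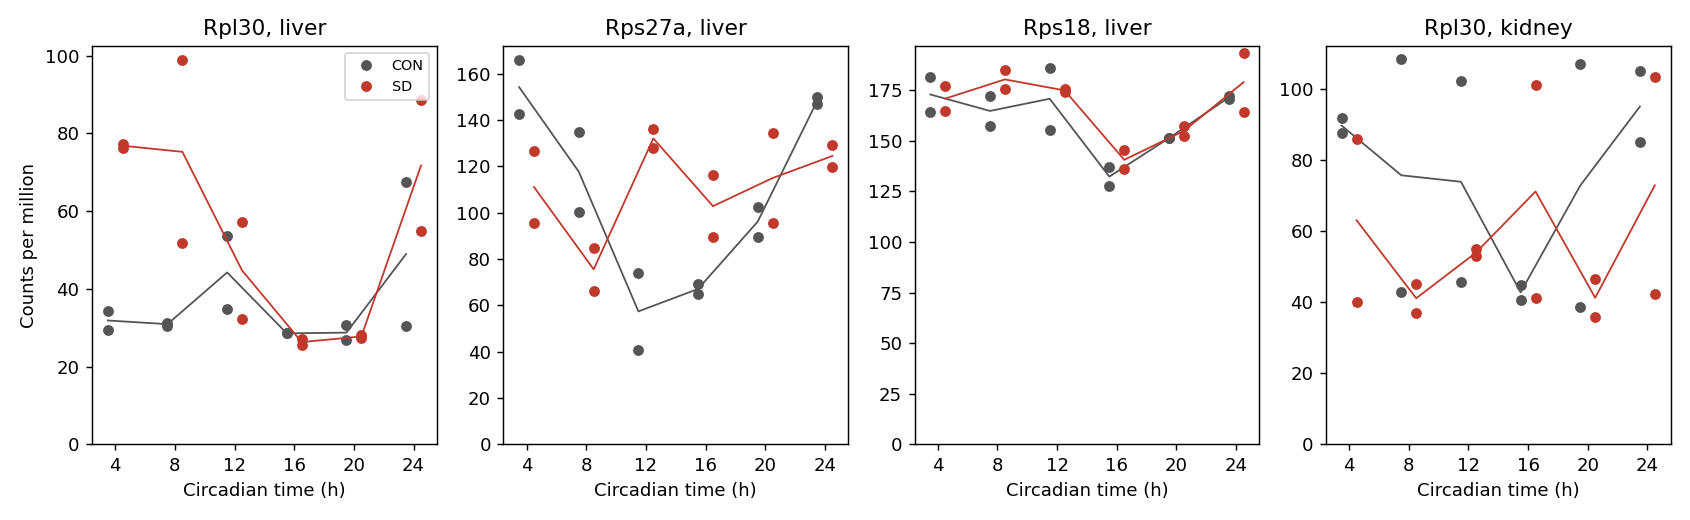
CPM of Rpl30, Rps27a and Rps18 in liver and of Rpl30 in kidney at each circadian time; points are libraries (CON grey, SD red) and lines join the means of 2. Liver Rpl30 was 77.3 and 76.3 in SD against 29.5 and 34.2 in CON at CT4, Rps27a fell to 74.1 and 40.6 in CON at CT12 where SD had 136.2 and 127.9, and kidney Rpl30 shows replicates that lie far apart.

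Rhythm over the day was tested with the JTK_CYCLE procedure at a period of 24 h. No ribosomal protein gene passed in any tissue or condition, while 0.147% of all genes in CON liver, 1.76% in SD liver and 0.158% in CON kidney did, and none in the other 5 groups. A one-sided p, computed first and seen before the two-sided p of JTK_CYCLE used here was restored, called 1 gene in CON liver and 2 in SD liver, beside 0.984% and 5.25% of all genes. The smallest two-sided adjusted p was 0.0762 for Rps29 in CON liver, peaking at CT8, and 0.0626 for Rps2 in SD liver, peaking at CT4. At an unadjusted p under 0.05 there were 8 genes in CON liver and 9 in SD liver, beside 12.6% and 16.3% of all genes. In the other groups there were 0 to 5, beside 5.54% and 3.13% of all genes in CON and SD forebrain, 2.88% and 3.88% in cerebellum and 6.91% and 7.37% in kidney. A cosine fit in edgeR called 8 genes in CON liver and 5 in SD liver, beside 8.79% and 11.8% of all genes, and 0 in the other tissues, beside 0.0997% and 0.00433% in CON and SD forebrain, 0.00450% and 0.0945% in cerebellum and 3.93% and 1.92% in kidney. Rps27a led in CON liver, with a log2 amplitude from mean to peak of 0.84, a peak at CT2.4 and an adjusted p of 0.000407 in edgeR. Rpl30 led in SD liver with 0.96, a peak at CT4.8 and an adjusted p of 0.00130 in edgeR. The remaining called genes, among them Rps2 in both conditions, had amplitudes of 0.20 to 0.36. The difference in rhythm between SD and CON passed for 0 genes in all 4 tissues by the edgeR fit and by DESeq2. It passed for no gene of any kind in edgeR. There, 3, 0, 2 and 7 ribosomal protein genes had an unadjusted p under 0.05 in forebrain, cerebellum, liver and kidney, beside 6.02%, 10.1%, 3.66% and 4.06% of all genes.

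Whether the effect of SD differed between tissues was tested directly in 1 fit of all 96 libraries. Of 76 genes, Rpl30 (adjusted p = 0.0244) and Rps18 (adjusted p = 0.0252) differed among the 4 tissues by the edgeR test, beside 5.07% of all genes. The effect in liver exceeded that in kidney for Rpl30 only, by 1.06 on the log2 scale (adjusted p = 0.00801, edgeR, background 2.01% higher). The counts moved with the setting. Among the 4 tissues, library sizes alone called 0 ribosomal protein genes (8.97% of all genes), DESeq2 called 10 (9.31%), and 11 were called without the cerebellum library that stood apart (7.64%). For liver above kidney, DESeq2 called 5 (4.27%), and 6 were called without that library (3.91%).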

How the data were processed

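Raw counts per gene were deposited by the authors for 96 stranded total RNA libraries. Per the submitters' processing notes and the study's methods, reads were trimmed with Trim Galore, aligned to GRCm38 with HISAT2, filtered with SAMtools at mapping quality 60 and counted with featureCounts. Unique placement undercounts genes with near-identical copies. Groups came from sample titles. The ribosomal protein genes and all lists were chosen with earlier results of these data known. Symbols came from GENCODE M21.

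Counts were tested per tissue with edgeR 4.0.16 (R 4.3.3): quasi-likelihood F-tests, TMM factors, filterByExpr, circadian time as a factor, and p-values adjusted by Benjamini-Hochberg across each fit. DESeq2 1.42.0 was an alternative, with other scalings, no filter, a replicate block, a length-balance covariate and omitted libraries. JTK_CYCLE p-values were computed on CPM (the study used TPM) with 6 phases; a one-sided version was computed first, and its calls were seen before the two-sided p was restored. Simulated data were run through the liver fits of SD against CON (all times, also by DESeq2, any time and CT8) and of the rhythm difference. They were also run through the fit of 96 libraries, liver against kidney, and JTK_CYCLE in CON liver, and other fits were not simulated. Depth was 24.8 M to 58.5 M counts, and with 2 libraries a group the precision rests on the spread pooled over a tissue. Named were the 10 genes with the largest change among those called with the same sign at 5 or more times, or the 5 with the smallest p where fewer than 5 passed, the 5 largest tissue differences each way, up to 5 by rhythm p, and the fixed paralog and example genes. Further genes (Rps27a, Rpl36a, Rpl21 and Rps15a) were named after their values were seen, and some genes that the rule names are not reported here.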

Additional observations from a re-analysis of the deposited data

Results flagged for a closer look

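The effect of SD differed between tissues by a test of the difference itself for 2 of 76 ribosomal protein genes among the 4 tissues: Rpl30 (adjusted p = 0.0244, edgeR) and Rps18 (adjusted p = 0.0252, edgeR). Of all genes 5.07% differed, a larger share than among these genes, and the count was 0 with library sizes alone, 10 by DESeq2 and 11 without cerebellum CON CT8 replicate 1. Between liver and kidney it differed for 1 gene, Rpl30 (adjusted p = 0.00801, edgeR), with differences of 0.63 in liver and -0.41 in kidney on the log2 scale. There DESeq2 called 5, and 6 were called without that cerebellum library. The kidney libraries with conflicting labels enter this comparison.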

How the results depend on the processing

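Of 512 alternatives for 52 counts of called genes, 429 stayed within 1.5 times. Most of the 52 counts were 0, and a count that stayed 0 was taken as within 1.5 times, so this share says little of the counts above 0. Of 1277 alternatives for 90 single values, 1214 kept direction and call. The cause of the changes listed here was not tested. The only count whose direction turned was liver over all times, with 2 genes, both lower, under library sizes alone. Library sizes alone also gave forebrain CT20 0, cerebellum CT8 1, liver at any time 1, the difference among 4 tissues 0, forebrain against cerebellum 11, forebrain against liver 31 and liver against kidney 5. Without a filter, counts for any time were 1 in forebrain, 4 in cerebellum, 8 in liver and 15 in kidney; all times gave 11 in liver and 1 in kidney; forebrain CT20 gave 0; cerebellum CT4, CT8 and CT20 gave 1, 15 and 1; in liver there was 1 at CT4, 2 at CT8, 4 at both CT12 and CT16, and 2 at CT24; in kidney there were 3 at CT8, 19 at CT12 and 2 at each of the other times; the liver rhythm difference gave 2 and the difference among tissues 1. DESeq2 called 3 in forebrain, 4 in liver and 6 in kidney at any time, 8 at forebrain CT20, 10 at kidney CT12, 1 each at liver CT4, CT8, CT12 and CT16, 10 among 4 tissues and 5 for liver minus kidney. Size factors by relative log expression gave 5 among tissues. The cosine fit called 8 and 5 genes in CON and SD liver, and the one-sided JTK p 1 and 2. Within each tissue, deviations of same-numbered libraries from their group means correlated above 0.1 in 5 to 19 of 66 group pairs. They correlated below -0.1 in 0 to 27 of the pairs. The groups of a tissue are different mice, so these values cannot show whether a replicate number pairs tissues of the same mouse. A replicate block gave cerebellum CT8 1, kidney CT12 2 and the difference among tissues 4. Leaving out libraries gave 9 to 28 for liver over all times, 1 to 12 for liver at any time, 0 to 52 for cerebellum CT8, 0 to 4 for forebrain CT20, 0 for kidney CT12, 10 to 30 for forebrain against cerebellum, 2 to 3 for liver against kidney, 11 among 4 tissues and 6 for liver minus kidney. Of the single values 3 turned on leaving out libraries: Rpl12 ranged from -0.34 to 0.0068 in cerebellum over all times and from -2.57 to 0.10 at CT8, above 0 in both without CON CT8 replicate 1, and Rpl36 for forebrain against kidney from -0.063 to 0.46, below 0 without replicate 1. The two-sided JTK p was settled after the calls of the one-sided p were seen, and the omissions at single times, at any time in liver and of the library that stood apart were chosen after seeing the data. Near-0 genes and 2 libraries a group limit what single times can show.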
